A study of Sus scrofa with 48 samples.

Results

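Transcript levels in dorsal subcutaneous adipose tissue (SCAT) were compared between pigs of the low residual feed intake line on a diet rich in fat and fiber (HF_RFIneg) and pigs of the high residual feed intake line on a low-fat, low-fiber, starch-rich diet (LF_RFIpl). These groups differ in diet and in line at once. They were chosen by their sample titles and hold 24 of the 48 arrays of the study, 12 arrays per group with 1 array per pig. Residual feed intake (RFI) is the difference between what a pig eats and what its growth and maintenance predict, so that a low value marks an efficient animal and a high value an inefficient one. The groups HF_RFIpl (high RFI line, HF diet) and LF_RFIneg (low RFI line, LF diet) completed the design with 12 arrays each and entered the same model. All animals were Large White barrows aged 132 days with free access to feed, and both lines come from 1 divergent selection experiment, so that the line contrast is that of 1 pair of lines. Fat came from rapeseed and soybean oils and fiber from wheat straw in the HF diet, and the LF diet was based on cereals, so that fat, starch and fiber changed together.

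Adipose tissue is the main site of fatty acid synthesis in the pig, largely from glucose. Glucose is trapped by hexokinase, turned into acetyl-CoA and built into fatty acids by the enzymes of de novo lipogenesis, which are known to respond to dietary starch and fat through regulators such as SREBF1 and MLXIPL. The tissue also secretes hormones such as leptin, and it holds endothelial, immune and nerve cells beside adipocytes. In such bulk samples, fewer cells of a type and less RNA per cell cannot be told apart.

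The arrays of both groups were of similar quality. A mean of 75.3% ± 4.03 (SD, n = 12) of the probes were well above background on the HF_RFIneg arrays and 75.4% ± 1.82 on the LF_RFIpl arrays (two-sided permutation test, p = 0.943). The arrays lay on 6 slides with 2 arrays of each group per slide, and had been scanned on 2 dates with 6 arrays of each group per date. Positions on the slides were uneven, and 4 HF_RFIneg arrays but 1 LF_RFIpl array lay at the first position. Replicate 12 of LF_RFIpl stood apart, with a median correlation to its own group of 0.972, whereas the next lowest array of the pair was at 0.981. Adipocyte identity was checked with 14 marker genes, of which 13 were measured. Of these, 12 were well above background on all 24 arrays, and the summed level of the list, as log2 of the sum of linear values, ranged from 11.6 to 11.9 in both groups.

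Of 44356 probes, 936 were differentially expressed (DEP) between HF_RFIneg and LF_RFIpl pigs, which is 2.11% of all probes tested. The level of 484 DEP (1.09%) was higher in HF_RFIneg and that of 452 (1.02%) was lower. Calls used the cut-offs of the study on the limma contrast, namely a p under 0.01 before adjustment, a change of more than 1.1-fold, and a p under 0.08 after Benjamini-Hochberg adjustment. Among 11116 genes, each represented by its brightest probe, 160 were differentially expressed (DEG, 1.44%), with 62 higher (0.558%) and 98 lower (0.882%) in HF_RFIneg. This split moved with the scaling of the arrays, and 86 genes were called higher and 65 lower when each array was scaled to its 75th percentile instead of its median. Differences and parts are given below on the log2 scale, as HF_RFIneg minus LF_RFIpl, unless called a fold. Changes were mostly moderate, with a median absolute log2 fold change of 0.447 for the DEG. Of the 160 DEG, 58 changed by more than 1.5-fold and 14 by more than 2-fold. None of the 11116 genes (0%) had all 12 arrays of one group above all 12 of the other, so that every gene described here overlapped between groups. Over all genes, 1471 (13.2%) had a p under 0.05 before adjustment, 918 of them (8.26% of all genes) lower in HF_RFIneg. The median of all genes was -0.024 on the log2 scale, with 42.5% of them above 0.

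Because the groups differ in both factors, each difference is the sum of a diet part (HF minus LF, mean of both lines) and a line part (RFIneg minus RFIpl, mean of both diets). In the same model, 1404 genes were called for diet (12.6%) and 134 for line (1.21%), whereas no gene was called for their interaction (0%, limma). Of the 11116 genes, 99 had an unadjusted p under 0.05 for the interaction. That is below the share of 0.05 that uniform p-values would give, and the reason was not tested. Among the 160 DEG of the pair, 119 were also called for diet only, 25 for line only, 3 for both factors and 13 for neither. Diet and line parts had the same sign in 141 of the 160 DEG, which the sum of the parts favours, and the diet part was the larger in 123. Most diet responses were not called in the pair. Of the 1404 genes called for diet, 122 (8.69%) were DEG here, and of the 134 called for line 28 (20.9%), against 1.44% of all genes. The diet part compares all 48 arrays and the pair 24, so that the pair has the larger SE (0.311 against 0.220 for KLKB1). A larger SE by itself gives fewer calls. The difference between the groups was smaller than the diet part in 1027 of the 1404 genes. Their median absolute value was 0.242 for the diet part and 0.196 in the pair. Of the 1041 genes lower on HF (9.36%), 782 had a line part above 0, and 246 of the 363 genes higher on HF (3.27%) had a line part below 0. The other diagonal of the design, HF_RFIpl minus LF_RFIneg, is the diet part minus the line part and shares no array with the first pair. It gave 1385 DEG (12.5%), of which 386 were higher (3.47%) and 999 lower (8.99%), or 608 and 524 with the 75th percentile. Over all genes, the median absolute log2 difference was 0.0924 for HF_RFIneg minus LF_RFIpl and 0.131 for the other diagonal, and parts of opposite sign were found in 6893 of 11116 genes (62.0%).

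**Figure D1:**
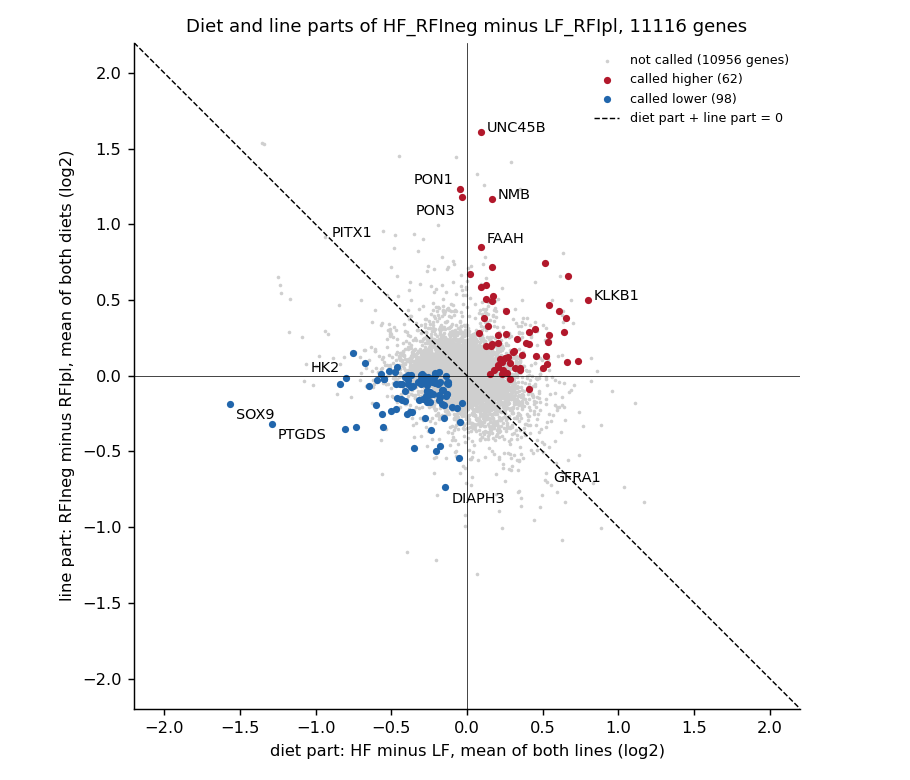
Each point is 1 of 11116 genes, with its diet part (HF minus LF, mean of both lines, log2) on the x axis and its line part (RFIneg minus RFIpl, mean of both diets, log2) on the y axis. Along the dashed line the parts sum to 0. The 62 DEG higher in HF_RFIneg (red) lie above it and the 98 lower DEG (blue) below it, SOX9, PTGDS and HK2 lie far out along the diet axis, and PON1, PON3, NMB and UNC45B along the line axis.

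The first principal components of the 24 arrays were examined on all kept probes. Component 1 (19.1% of variance) followed the slides, which accounted for 82.8% of the variance of its scores, and did not separate the groups (difference of means 0.628, two-sided permutation test, adjusted p = 0.968). Component 2 (9.45%) had mean scores of 21.4 ± 12.5 in HF_RFIneg and -21.4 ± 16.5 in LF_RFIpl (SD, n = 12, permutation test, adjusted p = 6e-05). Its difference between the groups was 53.6 on the first scan date and 32.1 on the second, and the scores of the groups overlapped. Without LF_RFIpl replicate 12 the difference was 40.8.

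**Figure D2:**
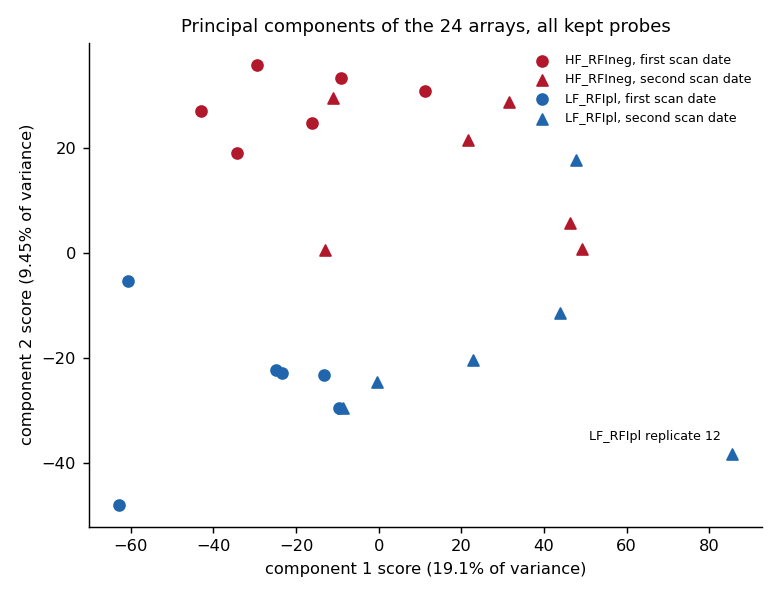
Scores of the 24 arrays on the first components of variation (arbitrary units), with groups as colours and scan dates as symbols. HF_RFIneg and LF_RFIpl arrays lie apart along component 2 apart from 1 LF_RFIpl array at 17.6, and LF_RFIpl replicate 12 lies at the far right of component 1.

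The 160 DEG had the same sign on both scan dates, as genes chosen over both dates tend to have, with a median absolute log2 fold change of 0.501 on the first and 0.360 on the second. In a model with both dates, 102 genes were called on the first date and none on the second, where 797 genes had an unadjusted p under 0.05. The difference between dates itself was called for 1 gene, TMC7, which is not among the DEG. Of the 36 DEG named below, 17 had a difference on the first date over 1.5 times that on the second, and 2 the reverse. Beside the genes whose values by date are given with their results, the log2 differences on the first and second date were 1.45 and 0.41 for SPEF2, 1.38 and 0.69 for RHCE, 1.31 and 0.71 for ADAMTS13 and 0.95 and 0.50 for TRIM25. Those of smaller increases were 0.51 and 0.24 for C14ORF101, 0.43 and 0.28 for TMEM260, 0.49 and 0.31 for RPL9 and 0.58 and 0.34 for CPT1B. For lower genes they were -1.43 and -0.71 for KLHL31, -1.10 and -0.68 for NTN1, -1.04 and -0.61 for MATK and -0.88 and -0.52 for ROBO1, and -0.59 and -0.22 for DNM1L, -0.51 and -0.32 for CYCS and -0.45 and -0.28 for SAT1. In ADAM28 and NMB the second date gave the larger value (0.95 and 1.71, and 0.90 and 1.75). The calls depended on other choices too. With array position as a block 48 genes were called, 46 of them among the 160, and without LF_RFIpl replicate 12 there were 148, 116 of them among the 160. Both changes left 43 of the 160 in the list. With slide as a block 308 genes were called, including all 160. The slides were balanced over the groups, and the reported fit did not take them as a block. Of the 36 DEG named below, 13 were called with position as a block, namely SOX9, PTGDS, MATK, CTSA, TF, TMEM260, C14ORF101, RPL9, TIGD1, TRIM25, SPEF2, PON1 and PON3. Without LF_RFIpl replicate 12, the 9 genes UNC45B, ADAM28, NMB, ROBO2, FAAH, SRD5A2, ALDH2, DIAPH3 and CYCS were no longer called. Their adjusted p then lay between 0.0821 for CYCS and 0.123 for ALDH2, with log2 fold changes of -0.43 and 0.57.

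**Figure D3:**
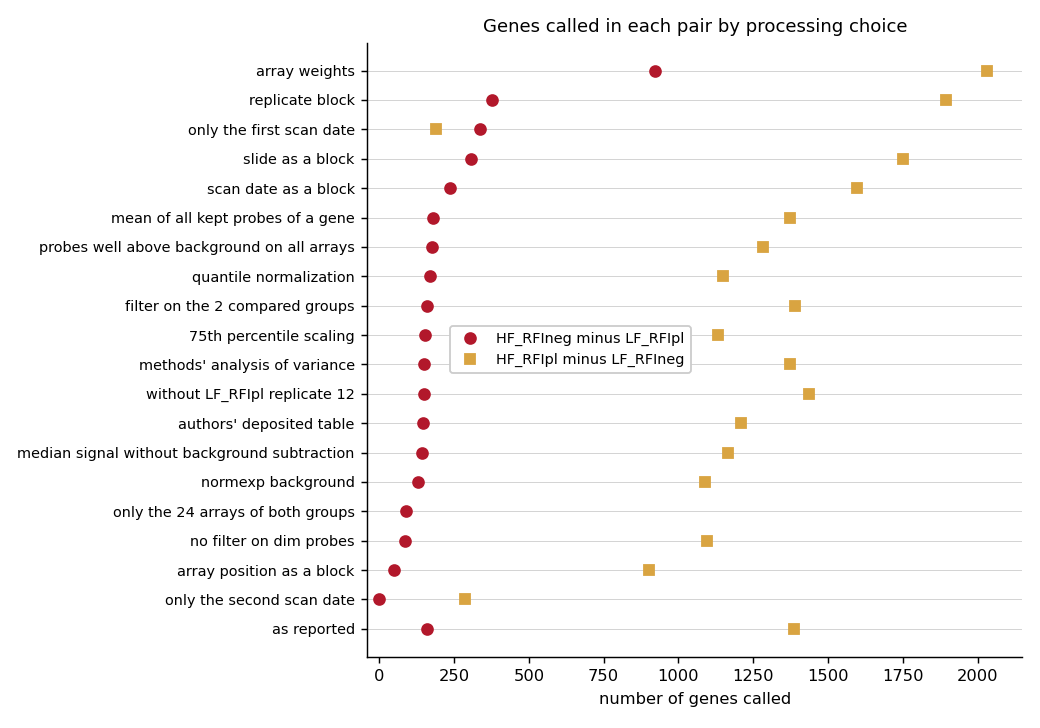
Number of genes called (x axis) under each processing choice (y axis) for HF_RFIneg minus LF_RFIpl (red circles) and HF_RFIpl minus LF_RFIneg (ochre squares). The reported choice gave 160 and 1385 genes. The count of the first pair ranged from 0 on the second scan date to 922 with array weights, and among the choices with both counts it exceeded that of the other diagonal on the first scan date alone, with 336 against 190 genes.

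The DEG with the largest decreases in HF_RFIneg pigs were carried mainly by diet. SOX9 is a transcription factor of cartilage and of progenitor cells that is known to restrain adipocyte differentiation. Its level, as log2 signal minus the array median, ranged from -3.47 to -0.57 (median -2.75) on the HF_RFIneg arrays and from -2.52 to 0.56 (median -0.71) on the LF_RFIpl arrays. Only 1 HF_RFIneg array was above the LF_RFIpl mean, and the level was 3.37-fold lower in HF_RFIneg (log2 fold change -1.75, SE 0.349, adjusted p = 0.009). That probe was well above background on all 24 arrays. A second SOX9 sequence, present on 2 probes, was called too (-1.73 and -1.70), but these probes were well above background on only 5 and 6 of the 12 HF_RFIneg arrays. The diet part of SOX9 was -1.56 and its line part -0.19, and the group means of -2.52 in HF_RFIpl and -1.14 in LF_RFIneg also lay apart by diet. PTGDS, the synthase of prostaglandin D2 in its lipocalin form, ranged from 1.55 to 3.51 (median 2.75) on the HF_RFIneg arrays and from 2.99 to 5.41 (median 4.15) on the LF_RFIpl arrays. All 12 HF_RFIneg arrays were below the LF_RFIpl mean (log2 fold change -1.61, SE 0.278, adjusted p = 0.00366), and the difference was -1.61 on each scan date. The PTGDS level was measured with the following probe, which the array holds under 2 probe names (-1.61 and -1.59) and which is shown because this gene had the smallest adjusted p among the lower genes.

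PTGDS: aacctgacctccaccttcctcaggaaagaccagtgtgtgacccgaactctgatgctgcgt

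Glucose and energy use was represented by HK2 and CKB. HK2, the insulin-responsive hexokinase that traps glucose in the cell, ranged from 3.39 to 5.33 (median 4.49) on the HF_RFIneg arrays and from 4.80 to 6.14 (median 5.16) on the LF_RFIpl arrays. It was 1.76-fold lower in HF_RFIneg (log2 fold change -0.81, SE 0.198, adjusted p = 0.0367), with -0.80 as its diet part and -0.017 as its line part. On the first and second scan date its log2 differences were -0.79 and -0.83. CKB, the brain-type creatine kinase that buffers ATP, fell by 0.73 on the log2 scale (adjusted p = 0.0623, limma). CYCS, the cytochrome c of the respiratory chain, fell by 0.42 on the log2 scale (adjusted p = 0.077, limma), and 1 of its 14 probes was called.

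TBXA2R, the receptor of thromboxane A2, fell in HF_RFIneg by 0.80 on the log2 scale (adjusted p = 0.0157, limma), and ranged from 2.18 to 3.44 (median 2.50) on the HF_RFIneg arrays and from 2.14 to 4.37 (median 3.36) on the LF_RFIpl arrays. Its differences were -1.18 on the first scan date and -0.41 on the second. NTN1, a secreted guidance cue, fell by 0.89, and KLHL31, a kelch-like protein of muscle, by 1.07 on the log2 scale (adjusted p = 0.0505 and 0.077, limma). Of 3 NTN1 probes 2 were called and the third gave -0.27. The probe named TF, for transferrin, fell by 1.16 on the log2 scale (adjusted p = 0.0376, limma). Transferrin has close relatives in the pig, and other TF probes gave -0.094 to -1.52, so that its identity is uncertain. Smaller decreases with a diet call were those of DNM1L, which divides mitochondria (-0.40), SAT1, which acetylates polyamines (-0.36), and CTSA, a lysosomal protease (-0.23). The line part was the larger one for DIAPH3, a formin that organises actin (diet part -0.14, line part -0.74), ROBO1, a receptor of SLIT ligands (diet part -0.21, line part -0.50), and MATK, a kinase that acts on SRC-family kinases (diet part -0.35, line part -0.48). These 3 genes were called for line and not for diet.

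**Figure D4:**
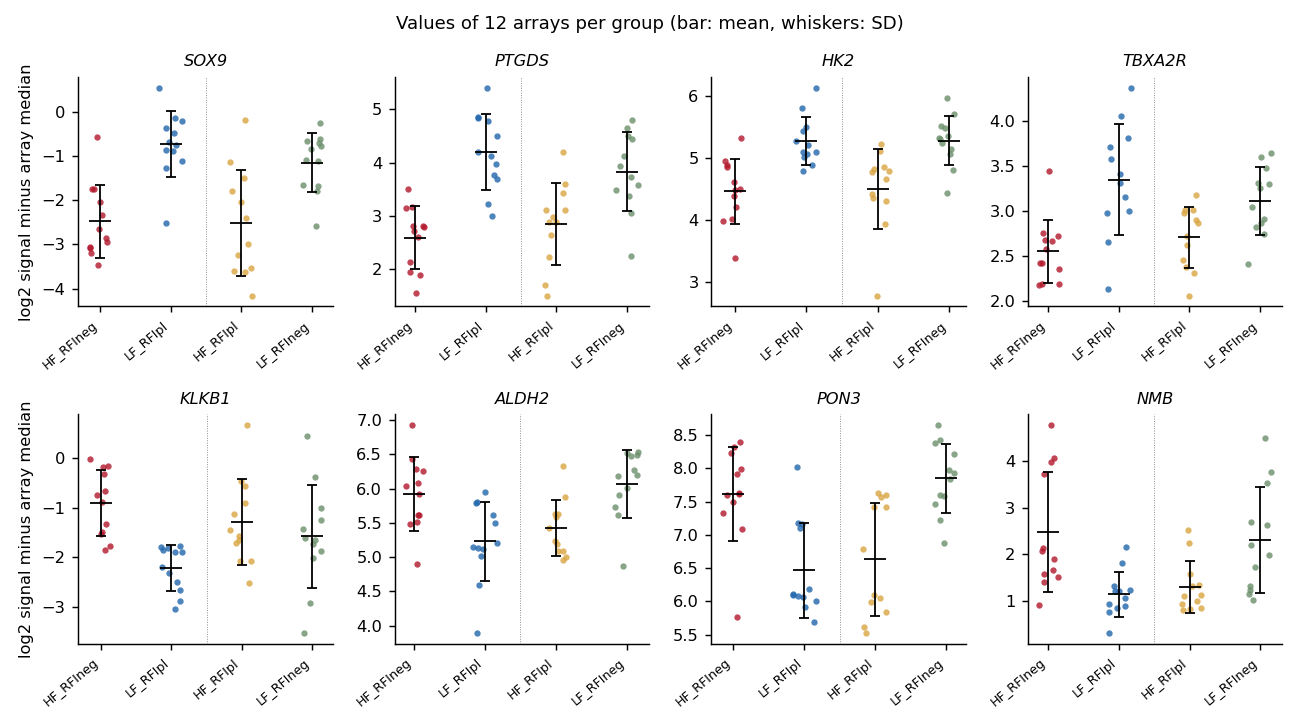
Levels of 8 genes on every array (y axis, log2 signal minus the array median) in HF_RFIneg and LF_RFIpl and, to the right of the dotted line, in HF_RFIpl and LF_RFIneg. Points are arrays, bars are group means and whiskers are SD (n = 12). SOX9, PTGDS, HK2 and TBXA2R are lower in both HF groups, PON3, ALDH2 and NMB are higher in both RFIneg groups, and KLKB1 is highest in HF_RFIneg and lowest in LF_RFIpl, with the other groups between.

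Several of the largest increases in HF_RFIneg pigs were carried by line. The paraoxonases are esterases and lactonases, and PON1 and PON3 are known for limiting the oxidation of lipoproteins. PON3 ranged from 5.77 to 8.40 (median 7.62) on the HF_RFIneg arrays and from 5.69 to 8.02 (median 6.11) on the LF_RFIpl arrays. The LF_RFIpl arrays fell apart into 8 at or below 6.18 and 4 at or above 7.11, and 11 HF_RFIneg arrays were at or above 7.09 with 1 at 5.77. PON3 was 2.22-fold higher in HF_RFIneg (log2 fold change 1.15, SE 0.278, adjusted p = 0.0367), with 1.18 as its line part and -0.034 as its diet part. All 4 of its probes were called (1.15 to 1.25). PON1 gave nearly the same values with its brighter probe (log2 fold change 1.18, SE 0.289, adjusted p = 0.0367) but not with the other one, which differed by -0.72 (adjusted p = 0.547 over all probes, limma). That second probe was itself called for line in the opposite direction (line part -1.27) and on the other diagonal (1.82). Group means of that second PON1 probe were 0.86 in HF_RFIneg, 1.64 in HF_RFIpl, -0.19 in LF_RFIneg and 1.58 in LF_RFIpl. The sequences are shown because the probes disagree and because the PON3 probe bears the name PON1 in the array annotation. No run of 13 or more bases is shared among them. Because its probes disagree, the level of PON1 is uncertain. Whether the PON3 probe and the brighter PON1 probe measure separate transcripts was not tested. None of the 4 PON2 probes was called (-0.15 to -0.20).

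PON1, called higher: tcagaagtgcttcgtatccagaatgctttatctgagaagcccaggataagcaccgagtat

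PON1, not called: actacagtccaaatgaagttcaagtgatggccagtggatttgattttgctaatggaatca

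PON3, called higher: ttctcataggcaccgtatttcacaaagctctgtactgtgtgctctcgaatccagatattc

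NMB encodes neuromedin B, a bombesin-like peptide. It ranged from 0.91 to 4.77 (median 1.98) on the HF_RFIneg arrays and from 0.31 to 2.16 (median 1.14) on the LF_RFIpl arrays, and 4 HF_RFIneg arrays at or above 3.73 stood apart from the other 8 at or below 2.13. Both NMB probes were called (1.33 and 1.53), and the gene was called for line (diet part 0.16, line part 1.16). FAAH, the amidase that breaks down anandamide, ranged from 0.14 to 2.51 (median 1.28) on the HF_RFIneg arrays and from -0.41 to 1.60 (median 0.37) on the LF_RFIpl arrays. It was 1.92-fold higher in HF_RFIneg (log2 fold change 0.94, SE 0.256, adjusted p = 0.0623), with 2 of 3 probes called and 0.14 for the third. SRD5A2, a steroid 5-alpha-reductase, rose by 0.89 on the log2 scale (adjusted p = 0.0631, limma), and its 12 HF_RFIneg arrays all lay above the LF_RFIpl mean. ALDH2, the mitochondrial aldehyde dehydrogenase, ranged from 4.89 to 6.93 (median 5.98) on the HF_RFIneg arrays and from 3.89 to 5.95 (median 5.18) on the LF_RFIpl arrays, with groups that overlapped (log2 fold change 0.69, SE 0.2, adjusted p = 0.0794). Of 11 ALDH2 probes 7 were called, and all 11 lay between 0.68 and 0.85. TRIM25, a ubiquitin ligase of antiviral signalling, was higher by 0.73 on the log2 scale (diet part 0.13, line part 0.60, adjusted p = 0.009, limma). All of these genes except PON3 and PON1 had parts of the same sign, and NMB, FAAH, SRD5A2, ALDH2, TRIM25, PON3 and the brighter PON1 probe were called for line and not for diet.

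In another set of genes, increases in HF_RFIneg were made up of diet and line parts that were both above 0. KLKB1, plasma prekallikrein, ranged from -1.86 to -0.023 (median -0.81) on the HF_RFIneg arrays and from -3.04 to -1.77 (median -2.04) on the LF_RFIpl arrays. All 12 HF_RFIneg arrays lay above the LF_RFIpl mean and the gene was 2.46-fold higher (log2 fold change 1.30, SE 0.311, adjusted p = 0.0328), with 0.80 from diet and 0.50 from line. Its 4 probes, of 2 distinct sequences, were all called (1.19 to 1.30). ADAM28, a membrane metalloproteinase, rose by 1.33 (adjusted p = 0.077, limma) and ALPK2, an alpha-type protein kinase, by 1.26 on the log2 scale (adjusted p = 0.0433, limma). Their parts were 0.67 and 0.66 for ADAM28, and 0.51 and 0.74 for ALPK2, and neither gene was called for diet or for line alone. The protease ADAMTS13, which cleaves von Willebrand factor, rose by 1.01, the blood group protein RHCE by 1.04, and SPEF2, a protein of sperm flagella and cilia, by 0.93 on the log2 scale, each also called for diet (adjusted p in the pair = 0.029, 0.0436 and 0.0157, limma). The parts were 0.54 and 0.47 for ADAMTS13, 0.65 and 0.38 for RHCE, and 0.64 and 0.29 for SPEF2, and the diet part was the larger in each. Of 4 SPEF2 probes 3 were called (0.83 to 1.34) and the other gave 0.27, and 2 of 3 ALPK2 probes were called. The SPEF2 probe at 1.34 was well above background on 10 HF_RFIneg but 6 LF_RFIpl arrays. For the second called ALPK2 probe, at 1.79, these numbers were 9 and 3. Both probes were thus measured against values near background and add little to the brighter ones. ROBO2, another SLIT receptor, and STBD1, a protein that binds glycogen, passed the filter on low signal only through the group where they were high. ROBO2 was well above background on 10 HF_RFIneg, 4 HF_RFIpl, 3 LF_RFIneg and 4 LF_RFIpl arrays, and STBD1 on 6, 5, 8 and 12 arrays of these groups. Their log2 differences of 1.03 and -0.82 were thus measured against values near background. UNC45B, a chaperone of muscle myosin, was well above background on 11, 6, 9 and 5 arrays of the same groups, and so passed through the RFIneg groups, where it was high. Its log2 difference of 1.70 was 2.82 on the first scan date and 0.57 on the second, and it was 0.55 with normexp background. The size of the change is uncertain for these 3 genes. Only 3 symbols were called for diet and for line with the same sign. They are C14ORF101 (log2 fold change 0.38, SE 0.0669, adjusted p = 0.00366), TMEM260 (0.35) and TIGD1 (0.48), and C14ORF101 is an older name of TMEM260, so that these are 2 genes. C14ORF101 ranged from 0.95 to 1.47 (median 1.27) on the HF_RFIneg arrays and from 0.63 to 1.14 (median 0.85) on the LF_RFIpl arrays. Its mean was 1.24 in HF_RFIneg against 0.92 in HF_RFIpl, 0.97 in LF_RFIneg and 0.87 in LF_RFIpl, and the means of TMEM260 were 2.87, 2.54, 2.58 and 2.52, so that HF_RFIneg stood above the other groups, which lay close together. Their interaction terms had an unadjusted p of 0.0213 and 0.0103 and were not called (limma).

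For some genes the probes of 1 symbol disagreed, and these genes, other than LEP and CPT1B, are given after their values were seen. SPP1 encodes osteopontin, a secreted phosphoprotein of macrophages and other cells. Its brightest probe was not called (-0.12, adjusted p = 0.654 over all probes, limma), and SPP1 was therefore not a DEG, while its other 6 probes were all called lower in HF_RFIneg (-1.26 to -1.44). The sequences of 3 of them are shown, with capitals for the 29 bases that 2 of the probes share.

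SPP1, probe at -1.26: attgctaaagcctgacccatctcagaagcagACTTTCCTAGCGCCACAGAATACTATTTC

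SPP1, probe at -1.34: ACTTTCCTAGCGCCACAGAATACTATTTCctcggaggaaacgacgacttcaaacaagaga

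SPP1, probe at -1.44: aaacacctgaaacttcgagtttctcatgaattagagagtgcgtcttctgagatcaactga

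CPT1B, the muscle-type carnitine palmitoyltransferase that lets long-chain fatty acids enter mitochondria, was the DEG of fatty acid oxidation (log2 fold change 0.46, SE 0.113, adjusted p = 0.0396). It ranged from -1.49 to -0.60 (median -1.07) on the HF_RFIneg arrays and from -2.10 to -0.94 (median -1.48) on the LF_RFIpl arrays. Of its 6 probes 4 were called (0.46 to 0.73), whereas 1 sequence present on 2 probes gave 0.12 and 0.054. The probes with the highest mean signal, the largest difference and no call are shown in this order.

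CPT1B, probe at 0.46: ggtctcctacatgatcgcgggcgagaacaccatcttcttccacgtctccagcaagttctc

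CPT1B, probe at 0.73: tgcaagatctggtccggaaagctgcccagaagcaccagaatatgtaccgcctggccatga

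CPT1B, probe at 0.12: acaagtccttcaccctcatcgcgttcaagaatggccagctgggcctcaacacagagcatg

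PDK4, the kinase that shuts off pyruvate dehydrogenase, was not a DEG with its brightest probe (log2 fold change 1.03, SE 0.328, adjusted p = 0.129), and 4 of its 11 probes were called, all 11 lying between 0.77 and 1.44. LEP, the adipocyte hormone leptin, ranged from 2.16 to 4.48 (median 3.30) on the HF_RFIneg arrays and from 3.53 to 4.96 (median 4.25) on the LF_RFIpl arrays. Its brightest probe was not called (log2 fold change -0.73, SE 0.229, adjusted p = 0.12), whereas the second LEP sequence was called on both of its probes (-0.71 and -0.81). Without LF_RFIpl replicate 12 all 4 LEP probes were called over all probes, though the gene was not called over genes (adjusted p = 0.0853, limma). IRAK2, a kinase of interleukin-1 and toll-like receptor signalling, fell by 1.54 on the log2 scale with 1 probe (adjusted p = 0.00289 over all probes, limma) and differed by -0.063 with its brighter one.

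Parts of opposite sign subtract in this pair by construction. Of the 160 DEG, 19 had parts of opposite sign, PON3 among them. There were 20 genes called for diet and for line in opposite directions, and none of them was a DEG of the pair, with limma or with the methods' analysis of variance (2 had an unadjusted p under 0.05). GFRA1, a receptor of glial cell line-derived growth factors, had a diet part of 0.53 and a line part of -0.70, which left -0.18 in the pair against 1.23 on the other diagonal. SLC16A13, a monocarboxylate transporter, had -0.85 and 0.47, with -0.38 in the pair and -1.31 on the other diagonal. The same values were -0.37, 0.50, 0.13 and -0.87 for EPHX1, the microsomal epoxide hydrolase. For SLC25A27, a mitochondrial uncoupling protein, they were 0.44, -0.51, -0.076 and 0.95. WDHD1, a DNA replication factor, had 0.44, -0.95, -0.51 and 1.39. PITX1, a homeobox factor near background, had -0.94 and 0.92 and differed by -0.02 in the pair.

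Fat synthesis and glucose use were followed through gene lists. Of 19 genes of de novo lipogenesis none was called by limma or by the analysis of variance, 4 had an unadjusted p under 0.05 (against 13.2% of all genes), all of them lower (against 8.26%), and 16 had differences below 0. The list median was -0.197, against -0.024 for all genes. ELOVL6, ACACA, ACLY, and below PLIN2 and GPX3, are given after their values were seen. The log2 differences were -0.75 for ELOVL6, which elongates palmitate, -0.67 for ACACA, the acetyl-CoA carboxylase, -0.58 for ME1, which supplies NADPH, and -0.51 for ACLY, which makes cytosolic acetyl-CoA (adjusted p = 0.136, 0.281, 0.333 and 0.347, limma). Of 4 ACACA probes 1 was called (-0.56, adjusted p = 0.0477 over all probes, limma), and the others gave -0.43 to -0.82. ELOVL6 and ACACA were called on the first scan date, where they differed by -1.15 and -1.15, and with array weights, and on the second date they differed by -0.36 and -0.19. Over all probes, though not over genes, the ELOVL6 probe was also called with slide as a block and without LF_RFIpl replicate 12. The second ELOVL6 probe gave -0.24. ME1 gave -0.55 on another probe of the same sequence and -1.05 on a second sequence, none of them called. On the first and second date ME1 differed by -0.77 and -0.39, and ACLY by -0.77 and -0.25. FASN, the fatty acid synthase, differed by -0.12 with its brightest probe (95% interval from -0.32 to 0.082), but its other 4 probes, of 3 sequences, lay outside that interval (-0.45 to -0.59). None of the 5 was called, and 2 of them were called lower for diet, so that the size for FASN is uncertain. Diet was called lower for 5 of the 19 genes in the same model, against 9.36% of all genes. Of 28 genes of glycolysis and pyruvate use, HK2 was the only one called (against 1.44% of all genes), 23 were below 0 and the median was -0.178. At an unadjusted p under 0.05 there were 9 of the 28, 7 of them lower, against 13.2% and 8.26% of all genes. Glycogen genes had a median of -0.112, with none of 14 called by limma or the analysis of variance and 4 at an unadjusted p under 0.05, again against 13.2% of all genes. The regulators of these pathways were not called, with -0.12 for SREBF1, -0.37 for MLXIPL and -0.015 for PPARG, the master regulator of adipocytes. PPARG took the opposite sign under several other processing choices, and its 95% interval ran from -0.18 to 0.15. Among 38 regulators of adipocyte transcription SOX9 alone was called, and 6 had an unadjusted p under 0.05.

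Fat use and mitochondria were followed in the same way, with 1.44% of all genes called, 13.2% at an unadjusted p under 0.05 and 42.5% above 0 as the background. Of 24 genes of fatty acid oxidation 15 were above 0, with a median of 0.091, CPT1B was the only one called, and 6 had an unadjusted p under 0.05. PPARA, a regulator of this pathway, differed by 0.85 (adjusted p = 0.197, limma), with a diet part of 0.96 and a line part of -0.10, and gave 1.19 on the first scan date and 0.51 on the second. None of 19 lipolysis and lipid droplet genes was called by either test (median 0.047, 2 at an unadjusted p under 0.05), and PLIN2, which coats lipid droplets, differed by 0.62 with a line part of 0.79 and a diet part of -0.17. Oxidative phosphorylation had 64 of 69 genes below 0, a median of -0.110, CYCS as the only DEG and 8 genes at an unadjusted p under 0.05. None of 16 genes of the citric acid cycle (median -0.094) and none of 19 of cholesterol synthesis (median -0.100) was called by either test, and 3 and 2 of them had an unadjusted p under 0.05.

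Protein turnover genes were set beside all genes, of which 42.5% were above 0. Among 44 proteasome genes 31 were below 0 and none was called (median -0.076). With the 75th percentile and with quantile normalization 28 and 27 of the 44 were below 0, so that this count moved with the scaling. Among 47 genes of ubiquitin conjugation 38 were below 0 and none was called (median -0.088), and 37 and 39 were below 0 under the same scalings. The analysis of variance called none of either list, and 8 and 11 of their genes had an unadjusted p under 0.05, against 13.2% of all genes. For diet alone, 11 and 10 genes of these lists were called lower, against 9.36% of all genes. Autophagy and lysosome genes had 25 of 29 members below 0, with CTSA as the only DEG and 7 at an unadjusted p under 0.05 (against 1.44% and 13.2% of all genes). Cytosolic ribosomal proteins ran the other way, with 55 of 67 above 0, a median of 0.053 and RPL9 as the only DEG (0.40, adjusted p = 0.009, limma). Another count, that at an unadjusted p under 0.05, was 9. Both counts were near the shares of all genes, 1.44% and 13.2%. Among 36 antioxidant and esterase genes 3 were DEG (against 1.44% of all genes), namely PON3, ALDH2 and, with its brighter probe alone, PON1, each higher (against 0.558%). The PON3 probe bears the name PON1 in the array annotation, so that PON3 and PON1 may not count separately. Of the 36 genes 20 were below 0, and GPX3, the plasma glutathione peroxidase, was -0.74 (adjusted p = 0.154, limma). GPX3 was called on the first scan date (-1.22) and not on the second (-0.27), and none of its 5 probes was called over both (-0.26 to -0.85). The list of prostaglandin, endocannabinoid and steroid conversion held 26 measured genes and, against 1.44% of all genes, 3 DEG, PTGDS lower and FAAH and SRD5A2 higher. Of the 30 pathway lists 10 had a called member, and 14 of the 160 DEG were on any list, which is 1.71% of the 820 listed genes against 1.44% of all genes. With the 75th percentile as the scale, which put the median of all genes at 0.0063, the medians were -0.166 for lipogenesis, -0.148 for glycolysis, -0.079 for oxidative phosphorylation, -0.045 for the proteasome and 0.083 for ribosomal proteins.

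**Figure D5:**
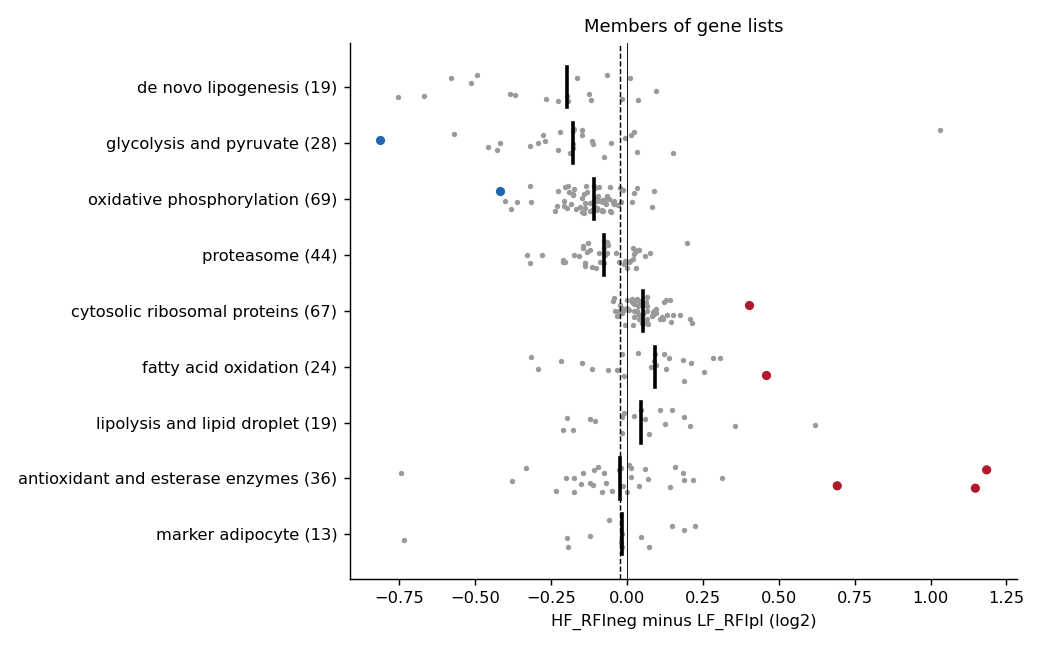
Log2 difference HF_RFIneg minus LF_RFIpl (x axis) of every measured gene of 9 lists (y axis, number of genes in brackets). Grey points were not called, red points were called higher and blue points lower, thick bars are list medians and the dashed line is the median of all genes, -0.024. Most points of de novo lipogenesis, glycolysis and oxidative phosphorylation lie to the left of 0 and most ribosomal proteins to the right.

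Markers of other cell types did not pass the test. None of 15 skeletal muscle, 11 macrophage, 9 blood cell, 13 endothelial, 12 lymphocyte, 9 nerve and 8 skin and epithelium markers was called by either test, and 2 muscle, 1 blood cell and 1 nerve marker had an unadjusted p under 0.05, against 13.2% of all genes. The summed level of the muscle list ranged from 5.39 to 6.58 in HF_RFIneg and from 5.51 to 7.16 in LF_RFIpl. For macrophages 9 of 11 markers were below 0 (median -0.107), where 42.5% of all genes were above 0. Their summed level ranged from 4.88 to 6.84 in HF_RFIneg and from 5.39 to 6.75 in LF_RFIpl. For skin and epithelium all 8 measured markers were above 0 (median 0.156), with summed levels of 0.887 to 3.65 and 0.710 to 3.01. The part of these cells in the values of single genes, such as SPP1, was not tested.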

How the data were processed

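Subcutaneous adipose tissue of 48 pigs was measured with 1 Agilent 1-colour (Cy3) array per pig, and sample titles gave the group and replicate number. The deposited scanner files, made by the authors with Agilent Feature Extraction, hold the intensity of each spot on a linear scale, and the processed signal used here is background-subtracted by that software. A deposited table holds log2 values for 38987 probes and was equal to the centred log2 median signal of the scanner files within 4.87e-09. The submitters' processing notes name R 2.10.0. Control spots (1319 per array) and spots with outlier flags (227 in all) were left out, and no spot was saturated. Kept were the 44356 probes that were above background, by the scanner software's flag, on 9 or more of 12 arrays in some group. Values are log2 processed signal minus the array median over these probes. Array intensities have no read depth, and the number of arrays limits the precision.

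Of 60305 probes, 27401 received 1 of 12914 symbols through the table of assembly Sscrofa11.1 or the names in the array files. The brightest kept probe stood for each gene. Probe sequences are those of the array files, and no genome position was used. The 4 group means were fitted to all 48 arrays with limma 3.58.1 in R 4.3.3 (lmFit, contrasts, eBayes with an intensity trend, two-sided), and p-values were adjusted over all probes or genes. The study's own test was a two-way analysis of variance, which was run as an alternative (the methods' analysis of variance). Scores of components and array measures were compared by permutation (two-sided, 100000 resamples). The fit was tested on simulated data.

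Named genes were the 12 DEG with the largest change in each direction, up to 10 others called for diet and line with the same sign, up to 6 called with opposite signs, up to 4 called and 2 uncalled members of each of 38 lists, and 10 fixed genes. A gene that meets the rule is counted but not reported here. Uncalled members were chosen by signal and are mostly given as counts. The groups, lists and rule were chosen with earlier results of these data known. Alternatives covered scaling, background, filters, blocks, weights, subsets of arrays, the test, the threshold and the choice of probe.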

Additional observations from a re-analysis of the deposited data

How the results depend on the processing

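Under each of the other choices all of the 160 DEG that were tested kept their sign, apart from 1 gene with the mean of all kept probes. The number of calls moved by more than 1.5 times under several. Keeping dim probes gave 566 probes and 86 genes, a slide block 1668 and 308, a block for array position 313 and 48, and array weights 3332 and 922. With an adjusted p under 0.05 and a fold over 1.5 there were 216 probes and 26 genes. A fit on the 24 arrays alone gave 88 genes. The first scan date alone gave 336 genes, and the second gave 0 probes and 0 genes, with 2796 probes and 665 genes at an unadjusted p under 0.05. For HF_RFIpl minus LF_RFIneg the counts were 901 genes with a position block, 190 on the first scan date and 285 on the second. Without a filter on dim probes the group difference was 33.1 on component 2 (no longer under 0.05) and 35.3 on component 3 (then under 0.05). The cause of these shifts was not tested, except that the subsets hold fewer arrays. Replicate 12 of LF_RFIpl was left out after seeing the data, which gave 958 probes and 148 genes (42 higher, 106 lower).

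The replicate numbers were not taken as pairs in the reported fit, because the labels name no shared animal, litter or batch for a number. Slide was not taken as a block either, although same-numbered arrays shared a slide and the slides were balanced over the groups. Variation between slides thus stayed in the error of the reported fit, and more genes were called with either block. Residual correlations of same-numbered arrays ran from -0.00523 to 0.378, 8 of 12 were over 0.1 and 3 of 12 arrays correlated best with their own number, and all 12 pairs shared a slide. With a replicate block 2092 probes and 375 genes were called, including all 160.

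Reversed signs were seen in genes that were not called. PPARG became 0.0159 with the 75th percentile, 0.0188 with position as a block, 0.0070 with the mean of its probes, 0.0024 with normexp background, 0.0296 on the first scan date and 0.0091 with quantile normalization. On the second scan date TMC7 was 0.622 and PON2 0.158. Low signal limits UNC45B, ROBO2 and STBD1, which were not well above background on more than 3 arrays in 2 or 3 of the groups.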

Other observations

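TMC7, a transmembrane channel-like protein, was the gene whose difference between HF_RFIneg and LF_RFIpl changed with scan date. Its HF_RFIneg levels were 1.23 to 1.78 on the first date and 2.32 to 3.02 on the second, and its LF_RFIpl levels were 2.37 to 3.43 and 1.81 to 2.51, so that the groups did not overlap within the first date.

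AKR1C1, an aldo-keto reductase of steroid metabolism, was not called (log2 difference 1.37, adjusted p = 0.355, limma), and 2 LF_RFIpl arrays stood far below the rest. They were at -4.87 and -3.16, and the other 10 at or above 3.43. AKR1C1 differed by 0.012 on the first scan date and 2.73 on the second. PON3 in HF_RFIpl was also split, with 6 arrays at or below 6.10 and 6 at or above 6.79, whereas all 12 LF_RFIneg arrays were at or above 6.87. At the probe level 4 of 44356 probes had groups that did not overlap, and none of them has a symbol here.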
